A study of Mus musculus with 24 samples.

Results

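NELFE-only sites were regions of the genome with strong signal for NELFE, one of the proteins of the negative elongation factor (NELF), and without strong signal for NELFB or SPT5. They were selected on the deposited pileup, the mean coverage of a peak by immunoprecipitated fragments. The 10000 peaks of highest pileup on chromosomes 1 to 19 (without chromosome 14 beyond 95 Mb) were kept from each of 6 peak lists. A kept peak of NELFE replicate 1 was a NELFE-only site when it overlapped a kept peak of NELFE replicate 2 by at least 1 bp and no kept peak of the 4 NELFB:HA and SPT5 lists. There were 206 such sites among the 10000 kept peaks of NELFE replicate 1, or 2.06%. Of those 10000, 91.1% (9113) overlapped a kept peak of NELFE replicate 2. The 206 sites were one class of these 9113, beside 8313 peaks shared by all 3 antibodies, 435 shared with NELFB:HA alone and 159 shared with SPT5 alone. A kept peak in either replicate of NELFB:HA or SPT5 was enough to count as shared, whereas NELFE had to be kept in both. Because the pileup of all 6 lists chose the sites, their levels are given as a description and without a test.

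The study measured NELF and SPT5 on chromatin by ChIP-seq in relation to pausing and changes of pluripotent state. The 6 libraries came from mouse embryonic stem cells of the E14 line, cultured with serum/LIF, with the treatment label Control and the genotype Nelfb deg in all of them. NELFB was precipitated through an HA tag in 2 libraries, NELFE with an antibody to the protein itself in 2, and SPT5 with an antibody to DSIF in 2. The other 18 of 24 samples are not analysed here, and the labels do not say whether the replicates were separate cultures. The controls therefore show an edited line and not unmodified cells.

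NELF is a complex that holds RNA polymerase II shortly after it starts a transcript, together with DSIF, which contains SPT5. NELFE carries the RNA-binding domain of the complex, and NELFB is one of its core subunits, so the same promoters are usually occupied by both. Transfer RNA (tRNA) genes are short genes read by another enzyme, RNA polymerase III, from promoter elements inside the gene, the A box and the B box. They lie in the genome as single copies and as clusters of many similar genes.

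The 206 sites fell into 2 sets. Of them, 95 (46.1%, 95% Wilson interval 39.4 to 52.9, which covers counting error only) overlapped an annotated tRNA gene, against 1.66% of the 10000 kept NELFE replicate 1 peaks. The share depends on the rule: it was 62.9% with 5000 peaks kept per list and 11.1% with 20000, and 20.3% without NELFE replicate 1 and 23.7% without NELFE replicate 2, where no second NELFE library was asked. Among peaks shared by all 3 antibodies, 45 of 8313 (0.541%) did so. The share was 14 of 435 (3.22%) in the peaks shared with NELFB:HA alone and 11 of 159 (6.92%) in those shared with SPT5 alone. The other 111 sites overlapped no annotated tRNA gene. Which sites overlap a tRNA gene was not part of the selection, but this class was chosen after the values had been seen.

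The sequences of 4 tRNA genes in kept NELFE peaks are shown to give the B box inside the gene. They were chosen because they are the tRNA genes that lie whole within a promoter window of another gene in the sequence table. They are therefore nearer to such a start (0 to 171 bp) than most tRNA genes at NELFE-only sites, whose median distance was 9644 bp. They are RefSeq sequences of assembly GRCm38.p6 (mm10), written 5′ to 3′ on the strand that holds the B box match, with the letters that match GTTCNANNC in capitals. The first gene lay in a NELFE-only site, the second in a peak shared with NELFB:HA alone, and the last pair in peaks shared by all 3 antibodies.
n-TAagc16, alanine, chr13:21222586-21222657, plus strand: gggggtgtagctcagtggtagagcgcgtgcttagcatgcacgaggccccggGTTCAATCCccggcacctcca
n-TTagt9, threonine, chr7:35234770-35234843, minus strand: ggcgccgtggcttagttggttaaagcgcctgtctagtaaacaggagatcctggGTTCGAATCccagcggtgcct
n-TRtcg5, arginine, chr7:79466419-79466491, plus strand: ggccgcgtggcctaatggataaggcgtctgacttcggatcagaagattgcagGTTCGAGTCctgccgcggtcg
n-TVcac9, valine, chr13:23446142-23446214, minus strand: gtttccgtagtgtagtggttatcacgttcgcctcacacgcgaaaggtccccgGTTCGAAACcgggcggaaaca
Each of the 4 genes held 1 match, which began at base 52 of n-TAagc16, base 54 of n-TTagt9 and base 53 of the other two. The pattern is short, and 9.28% of all 31223 promoter windows of 300 bases held it on either strand. The NELFE fold enrichment over input in replicates 1 and 2 was 9.63 and 7.91 at n-TAagc16. It was 4.69 and 4.30 at n-TTagt9, 9.68 and 7.07 at n-TRtcg5, and 8.58 and 9.98 at n-TVcac9. At n-TAagc16 the NELFB:HA fold enrichment was 1.80 in replicate 2, and no peak was listed in NELFB:HA replicate 1 or in either SPT5 list. At n-TRtcg5, whose gene lies 146 bp from the start of Polg, a gene for the mitochondrial DNA polymerase, NELFB:HA reached 4.03 and 5.72 and SPT5 2.37 and 2.32. NELFE was thus high at these 3 genes (n-TAagc16, n-TRtcg5 and n-TVcac9), while NELFB:HA and SPT5 differed between them.

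The tRNA sites were the strongest NELFE-only sites, and all 10 with the highest mean NELFE percentile overlapped tRNA genes. The first was chr11:58301870-58303003, over n-TLcaa3 (leucine) and n-TEctc10 (glutamate). Its pileup was 103.82 in NELFE replicate 1 and 103.09 in replicate 2, which ranked it 103rd and 102nd in the lists. Its fold enrichment was 18.6 and 12.1 in NELFE, 1.59 and 1.69 in NELFB:HA and 1.76 and 1.54 in SPT5. Both NELFE libraries were therefore far above the other 4, which lay close to one another. At chr11:48833560-48834732, inside Trim7 and over n-TAtgc9 and n-TKctt10, NELFE fold enrichment was 12.8 and 11.8, NELFB:HA was 1.89 and 1.74, and neither SPT5 list held a peak. At chr2:57180997-57182800, over n-TAcgc8 and n-TGgcc8, NELFE was 14.5 and 11.4, NELFB:HA replicate 2 was 1.67, and the other 3 lists held no peak. A wider site, chr11:69122511-69126139, covered 4 tRNA genes (n-TKctt27, n-TLtag3, n-TQctg6 and n-TRtct4) and the region of Aloxe3 and Hes7, the latter a gene of the segmentation clock. It had NELFE fold enrichment of 10.2 and 8.72, NELFB:HA of 1.64 and 1.52, and SPT5 of 1.59 and 1.65. Over all 10 sites the highest value in the 4 other libraries was 2.20, in NELFB:HA replicate 1 at chr11:69039212-69042248, where NELFE was 9.58 and 7.71.

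Over all 95 tRNA sites the NELFE fold enrichment had a median of 7.18 in replicate 1 (2.79 to 18.6) and 7.38 in replicate 2 (3.06 to 12.5). Over all 10000 kept peaks the medians were 4.80 and 5.14, and over peaks shared by all 3 antibodies 5.30 and 5.65. In NELFB:HA, 67 and 79 of the 95 sites held any peak, with a median fold enrichment of 1.72 and 1.73 over those peaks. In SPT5, 60 and 45 held one, at 1.72 and 1.58. Over all 10000 kept NELFE replicate 1 peaks, where one was listed, the medians were 4.05 and 3.23 in NELFB:HA. They were 2.74 and 2.68 in SPT5. The lowest NELFE value was 2.79, and the highest NELFB:HA value, among sites with a peak, was 2.49. The rule used the pileup of both antibodies, so this gap is set in part by the selection. Fold enrichment is the ratio of coverage to the local input background as the authors' caller gave it. Each list was normalized on its own library and input, so the values are set side by side as levels and not as an amount of protein.

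**Figure D1:**
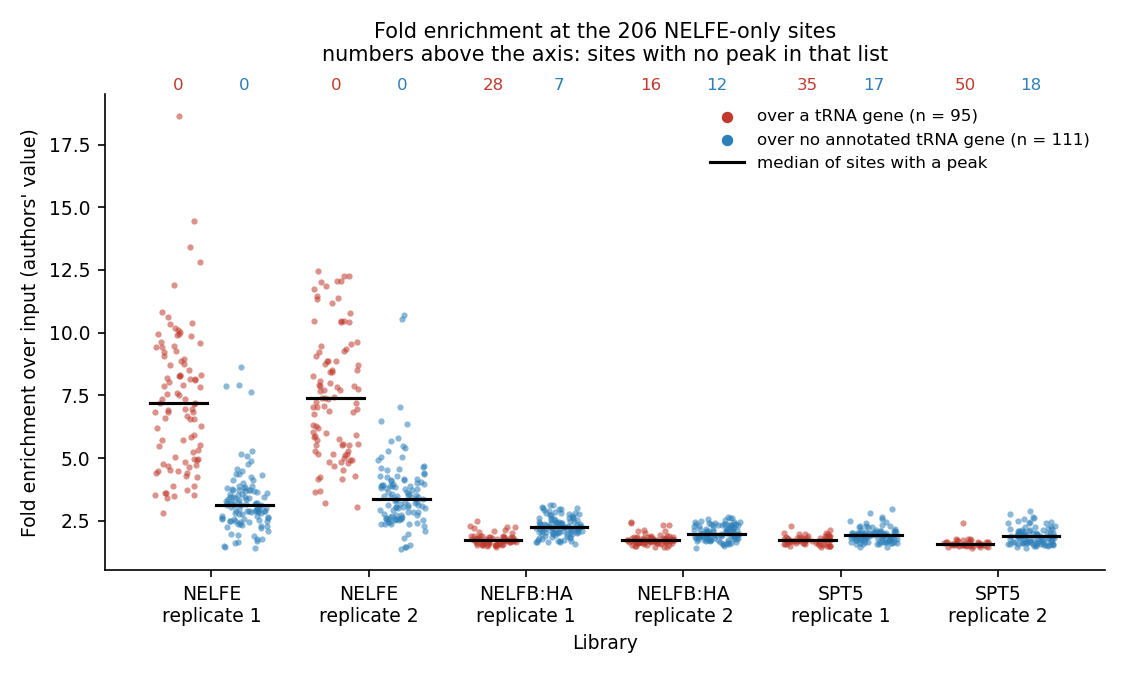
Fold enrichment over input (y axis, the authors' value) at the 206 NELFE-only sites in the 6 libraries (x axis), with 1 point per site, red for the 95 sites over a tRNA gene and blue for the 111 others. Black lines are medians over sites with a peak, coloured numbers count sites with no peak, and the red points reach medians of 7.18 and 7.38 in NELFE and lie under 2.5 in the other libraries.

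The other 111 sites were weaker in NELFE and closer to the threshold in the other antibodies. Their NELFE fold enrichment had a median of 3.12 in replicate 1 (1.42 to 8.64) and 3.38 in replicate 2 (1.38 to 10.7). NELFB:HA peaks were present at 104 and 99 of them, with a median fold enrichment of 2.25 and 1.99. SPT5 peaks were present at 94 and 93, at 1.92 and 1.87. Many narrowly missed being kept for NELFB:HA. The strongest NELFB:HA peak ranked 10001 to 20000 at 90 of 111 sites in replicate 1 and at 61 in replicate 2. Over all kept NELFE replicate 1 peaks the shares were 8.51% and 8.97%. The rule barred ranks of 10000 or better, and the band also held 148 and 118 of the 159 peaks shared with SPT5 alone. The same band held 44 and 72 of 111 sites for SPT5, against 11.2% and 9.69% of all kept NELFE replicate 1 peaks. Among the 95 tRNA sites it held 14 and 16 for NELFB:HA and 17 and 14 for SPT5. The median rank of the peak in NELFB:HA was 34567 and 52682 at the tRNA sites and 11947 and 15375 at the others, among sites with a peak.

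**Figure D2:**
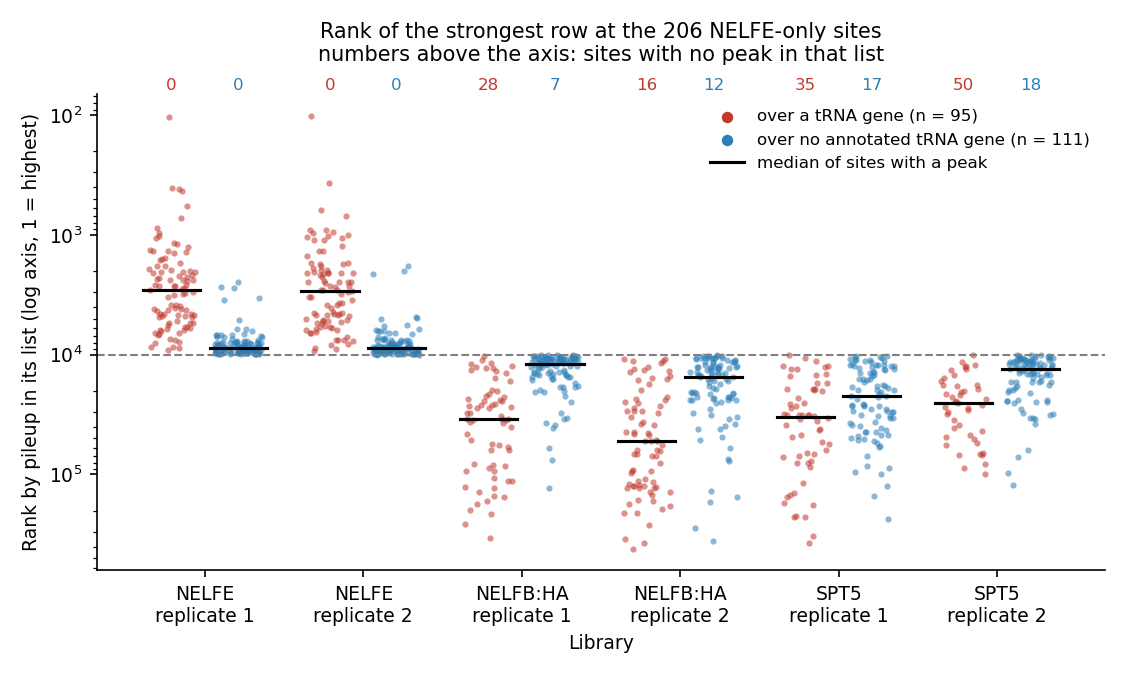
Rank by pileup of the strongest peak at each of the 206 sites (y axis, log scale, highest peak at the top) in the 6 libraries (x axis), with the dashed line at rank 10000 and black lines at the medians. Red sites, over a tRNA gene, spread far below the line in NELFB:HA and SPT5, while blue sites, over none, gather beside it in NELFE replicates 1 and 2 (medians 8757 and 8855) and in NELFB:HA replicate 1 (median 11947).

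Peaks of any strength were thus common at NELFE-only sites, since the lists also hold weak peaks. A NELFB:HA peak was present in both replicates at 159 of 206 sites (77.2%, interval 71.0 to 82.4), against 98.5% of the kept NELFE replicate 1 peaks. An SPT5 peak was present in both at 120 sites (58.3%, 51.4 to 64.8), against 96.6%. These shares are low partly by construction, because the rule removed the strong peaks of both antibodies. With peaks of a deposited −log10 q-value of 2 or more, the shares were 0.971% and 0.485%, or 2 sites and 1 site. The file headers say that q was not calculated, although the column holds values, so what this cut means is uncertain. No peak of any strength was listed in the 4 NELFB:HA and SPT5 libraries at 9 sites (4.37%). The same held for 15 of the 10000 kept NELFE replicate 1 peaks (0.15%). Of the 9 sites, 5 lay over tRNA genes, the strongest at chr8:94703310-94704319 (n-TLcag4 and n-TLcag5), where NELFE fold enrichment was 8.89 and 12.1. The other 4 lay over no tRNA gene and had NELFE fold enrichment of only 1.42, 1.48, 1.46 and 1.60 in replicate 1. Fold enrichment under 2 was found at 11 NELFE-only sites (5.34%), none of them over a tRNA gene, against 1.70% of the kept peaks.

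At the threshold, the 5 NELFE-only sites of lowest pileup in NELFE replicate 1 had values of 17.32, 17.33, 17.34, 17.44 and 17.5. The lowest kept value was 17.24, and the next 5 peaks all had 17.23. Each of those 5 overlapped a kept peak of NELFB:HA or of SPT5. None of the 5 sites just inside overlapped a tRNA gene.

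To see whether the status held in libraries that had not chosen a site, the rule was applied to replicate 1 of each antibody and read in replicate 2. It chose 669 sites, and 206 of them (30.8%, interval 27.4 to 34.4) met it again, and 11.6% (569 of 4890) did with 20000 peaks kept per list. These 206 are the NELFE-only sites themselves, since the full rule asks for both replicates. Of the chosen sites over tRNA genes, 95 of 104 (91.3%, 84.4 to 95.4) met it again, and 111 of 565 of the others (19.6%, 16.6 to 23.1). In the other direction, 88 of 101 tRNA sites (87.1%, 79.2 to 92.3) and 111 of 661 others (16.8%, 14.1 to 19.8) met it again. The tRNA sites chosen on replicate 1 had a median NELFE fold enrichment of 7.39 in replicate 2, against 2.86 at the others, and 103 of 104 against 243 of 565 were among the kept NELFE peaks there. NELFE-only status was thus repeated at most tRNA sites and at few of the rest. The tRNA class was chosen after the values of both replicates had been seen, so replicate 2 was not held out for this contrast. With 1 held-out library per antibody, the difference was not tested.

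**Figure D3:**
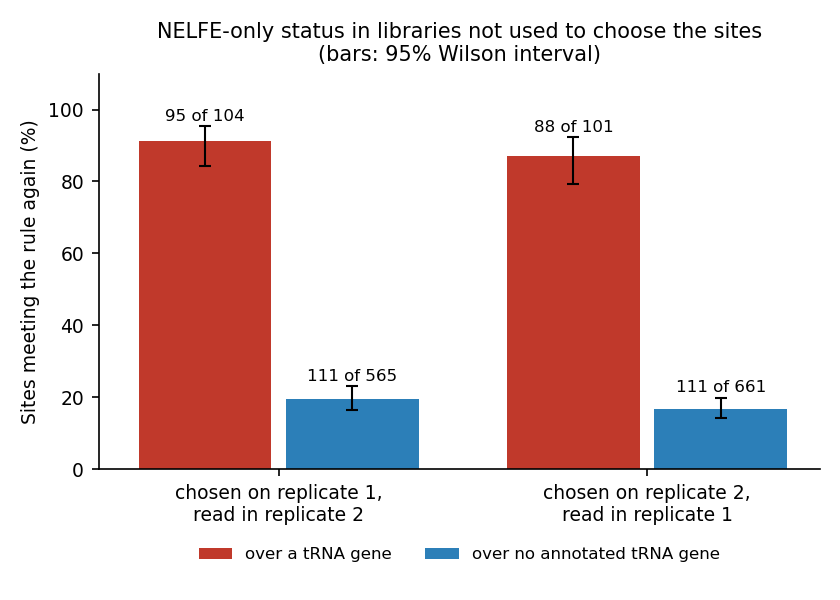
Percent of sites (y axis) that met the NELFE-only rule in the replicate not used to choose them, for sites over a tRNA gene (red) and over none (blue), in both directions (x axis). Bars carry 95% Wilson intervals, and the red bars are 91.3% and 87.1%, against 19.6% and 16.8% for the blue ones.

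The annotated tRNA genes were also taken as the starting point. This view is not independent of the selection, and the class was chosen after the values had been seen. Of the 385 genes annotated on these chromosomes, 264 and 265 lay in a kept NELFE peak (68.7% ± 0.184, SD, n = 2). The counts were 54 and 56 for NELFB:HA (14.3% ± 0.367, SD, n = 2). SPT5 had 54 and 42 (12.5% ± 2.20, SD, n = 2). Both NELFE libraries thus exceeded all 4 others by more than the spread between replicates. The median fold enrichment of any peak at a tRNA gene was 7.25 and 7.79 in NELFE, 2.05 and 1.83 in NELFB:HA, and 1.82 and 1.73 in SPT5. The same 263 genes were in kept peaks of both NELFE lists, and 97 had no NELFE peak in either. NELFE-only sites held 153 of the 385, and for these the rule itself set the contrast between NELFE and the other antibodies. The SPT5 libraries had longer tags than the others and shared 1 input, so the antibody and these differences cannot be told apart for them. NELFB:HA and NELFE libraries had tags of 50 bp and an input each. Their filtered tags ranged from 28944909 to 41312333, and those of their inputs from 26160905 to 38427034.

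**Figure D4:**
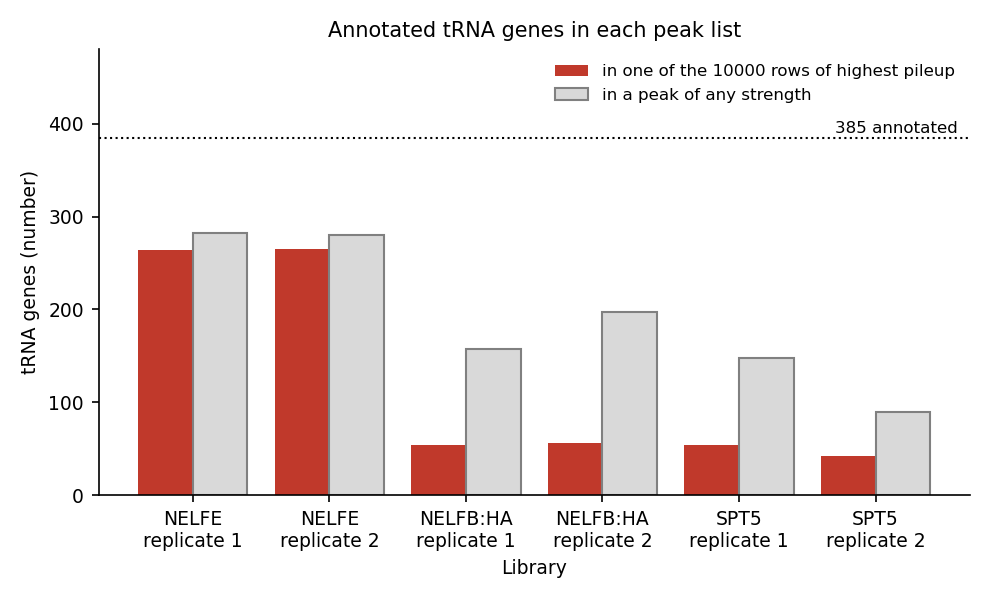
Number of annotated tRNA genes (y axis) in a kept peak (red) or in a peak of any strength (grey) in each of the 6 libraries (x axis), with the dotted line at all 385. Kept NELFE peaks hold 264 and 265 genes, and the kept peaks of the other libraries hold 42 to 56.

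tRNA genes of all 20 amino acid types occurred at NELFE-only sites. Leucine had the most, with 16 of its 25 genes at such sites and 20 in kept peaks of both NELFE libraries. All 10 tyrosine genes and all 6 phenylalanine genes were in kept peaks of both NELFE libraries, as were 22 of 23 for arginine. Cysteine genes, the most numerous type in the annotation, had the lowest share. Only 6 of 57 cysteine genes were in kept peaks of both NELFE libraries, and 51 lay in no kept NELFE replicate 1 peak. Most cysteine genes formed an array at chr6:48133937-48363603, and none of those lay in a kept NELFE peak. All 6 kept genes lay outside this array. The low share therefore comes from the array and does not describe cysteine genes in general. tRNA genes are a multigene family with near-identical copies. How reads that match several copies were placed is not given in the sources used here, so the signal of such copies is uncertain.

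The tRNA genes in peaks shared by all 3 antibodies lay nearer to annotated starts of other genes than those at NELFE-only sites. Of the 65 tRNA genes in peaks shared by all 3 antibodies, 34 (52.3%) were within 1000 bp of such a start, with a median distance of 858 bp. Of the 153 at NELFE-only sites, 13 (8.50%) were, with a median distance of 9644 bp. Peaks shared with 1 other antibody did not show this nearness: 3 of 23 genes (13.0%, median 3437 bp) were near a start in those shared with NELFB:HA and 0 of 22 (median 9877 bp) in those shared with SPT5. Over all 385 tRNA genes, 55 (14.3%) were. Median NELFE fold enrichment was 7.60 and 7.75 for the NELFE-only genes and 7.36 and 9.41 for those shared by all 3 antibodies. The shared genes were thus slightly lower in replicate 1 and higher in replicate 2. The medians of NELFB:HA, over genes with a peak only, were 1.81 and 1.73 against 4.03 and 2.68. Kept NELFB:HA peaks define the classes, so this difference is set in part by the rule. A peak is wider than a tRNA gene, so signal of the neighbouring start and of the tRNA gene cannot be told apart in the shared peaks. At the 59 NELFE-only sites that held a single tRNA gene, the gene's centre was displaced from the peak's centre by a median of 38.4% of the distance to the peak's edge.

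Chromosome 13 held 55 of the 206 sites, 53 of them over tRNA genes. That was 11.6% of the 474 kept NELFE replicate 1 peaks on that chromosome, where 105 of the 385 tRNA genes are annotated. Sites less than 100 kb apart formed 13 clusters of at least 2 sites, which together held 88 sites, 79 over tRNA genes. The largest was chr13:21847784-22030348, with 20 sites over 29 tRNA genes. The next were chr13:23270164-23527830, with 17 sites over 28 tRNA genes, and chr13:21159846-21327840, with 15 sites over 23. Fold enrichment in NELFE replicate 1 ranged from 4.40 to 11.9 in the first, 3.48 to 13.4 in the second and 3.61 to 10.8 in the third. NELFE-only sites thus recurred along each of these arrays. On chromosome 1, chr1:171033660-171111921 held 6 sites over 11 tRNA genes. On chromosome 11, chr11:69039212-69126139 held 4 sites over 11.

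**Figure D5:**
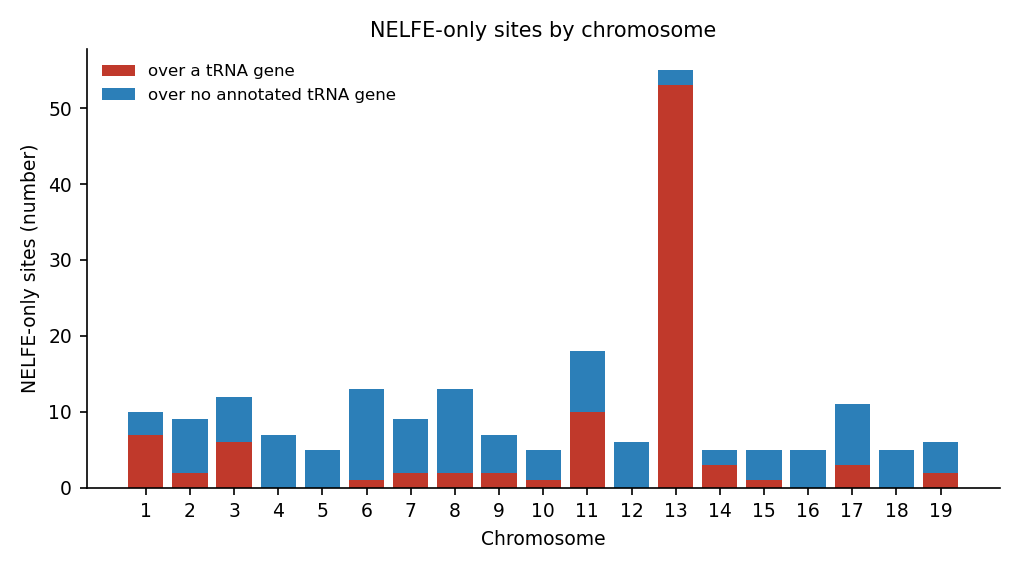
Number of NELFE-only sites (y axis) on each chromosome (x axis), split into sites over a tRNA gene (red) and over none (blue). Chromosome 13 has 55 sites, of which 53 are over tRNA genes, and chromosome 11 follows with 18.

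Some strong sites without an annotated tRNA gene were also grouped. The interval chr6:128762968-128839756 held 4 sites and no annotated tRNA gene, with NELFE replicate 1 fold enrichment of 5.16 to 8.64. At the strongest, chr6:128762968-128765626, NELFE was 8.64 and 10.7, NELFB:HA was 2.04 and 1.76, and SPT5 was 1.70 in replicate 1 with no peak in replicate 2. These levels were within the range of the tRNA sites. A second group, chr6:47739733-47782762, held 3 sites with no annotated tRNA gene. One of its sites, chr6:47779640-47782762, covered Rny3, which encodes a Y RNA, a small RNA also made by RNA polymerase III. Fold enrichment at Rny3 was 3.17 and 3.88 in NELFE, with 1.63 in NELFB:HA replicate 1, 1.56 in SPT5 replicate 2 and no peak in the other two libraries. The strongest site of the group, chr6:47778052-47778683, had 7.65 and 10.6 in NELFE, 1.92 and 1.97 in NELFB:HA, and 1.45 and 1.70 in SPT5.

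Other RNA polymerase III genes were looked up in a list of 10, also chosen after the values were seen. Only Rny3 lay in a NELFE-only site, and 6 lay in peaks shared by all 3 antibodies. Rn7sk, the RNA that holds the elongation factor P-TEFb inactive, had NELFE fold enrichment of 10.8 and 7.91, NELFB:HA of 5.00 and 2.41, and SPT5 of 2.88 and 2.72. Rn7s1, an RNA of the signal recognition particle, had 12.1 and 16.9 in NELFE, 7.32 and 5.84 in NELFB:HA, and 3.95 and 3.58 in SPT5. Rpph1, the RNA of ribonuclease P, had 7.52 and 7.33, 5.85 and 3.21, and 3.04 and 2.85 in the same order. At these genes NELFE was the highest of the antibodies, but NELFB:HA and SPT5 were kept as well. NELFE also had the highest median fold enrichment over all peaks shared by all 3 antibodies, in both replicates. In replicate 2 these medians were 5.65 in NELFE, 3.53 in NELFB:HA and 2.82 in SPT5. That NELFE was highest therefore does not set these genes apart from other shared peaks. Rnu6 and Rn5s had no peak in any list. Bc1 went the other way, with no peak in either NELFE list or in NELFB:HA replicate 1. It lay in kept peaks of NELFB:HA replicate 2 (rank 9850) and SPT5 replicate 2 (rank 8027). Its peak in SPT5 replicate 1 ranked 12366 and was not kept.

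Starts of genes read by RNA polymerase II were less frequent at NELFE-only sites than at kept NELFE peaks in general. Of the 201 sites on chromosomes with annotated starts, 48 (23.9%, interval 18.5 to 30.2) lay within 1000 bp of one, against 71.0% of the kept peaks. The table of starts is not complete and has none on chromosome 18, so the shares are minimum values. The annotation also lists no tRNA gene on that chromosome, which held 5 of the 111 sites over no tRNA gene. Among peaks shared by all 3 antibodies the share was 76.2%, and among those shared with SPT5 alone 42.3%. It was 12 of 95 for the tRNA sites and 36 of 106 for the others. A protein-coding gene, at its start or elsewhere, was overlapped by 83 of 206 sites (40.3%), against 87.6% of the kept peaks. The starts near the sites belonged to 30 protein-coding genes and 24 genes for long noncoding RNAs.

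Over all genes with a start in the table, 54 of 25605 had one within 1000 bp of a NELFE-only site. At so small a share, lists of this size would hold few such genes or none, and they held few. Foxa2, which encodes a transcription factor of endoderm, was the single one of 29 lineage regulators with a start in the table. Zfp418 was the single one of 330 zinc finger genes. None of 17 pluripotency genes, 11 formative and primed genes, 10 heat shock genes, 938 olfactory receptor genes, 19 pausing and elongation factors, 18 immediate-early genes, 73 ribosomal protein genes or 62 histone genes was at a NELFE-only site. Embryonic stem cell markers were in kept peaks at 6 of 9 starts in both NELFE lists, and markers of other cell types at 0 of 9, against 8406 and 8403 of all 25605 genes. At Foxa2, the site chr2:148044940-148047086 had fold enrichment of 3.44 and 2.53 in NELFE, 2.92 and 2.09 in NELFB:HA, and 1.72 and 2.01 in SPT5. At Zfp418, the site chr7:7170515-7172230 had 2.99 and 4.05 in NELFE, 2.43 and 2.28 in NELFB:HA, and 1.59 and 1.76 in SPT5. NELFE replicate 2 at Foxa2 was below NELFB:HA replicate 1, so the libraries of these antibodies overlapped there.

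Further protein-coding starts followed the same pattern of small distances between antibodies. Csnk2a2, a catalytic subunit of casein kinase 2, had 4.32 and 3.46 in NELFE, 2.87 and 1.95 in NELFB:HA, and 2.66 and 2.76 in SPT5 at chr8:95488644-95489552. Rarg, a retinoic acid receptor, had 2.58 and 3.36, 2.15 and 2.17, and 1.98 and 1.83 in the same order of antibodies. Ccnd3, the gene of cyclin D3, had 3.14 and 2.83, 1.82 and 1.68, and 2.00 and 1.82. In each of these 3 the lowest NELFE library exceeded the highest of the other 4 libraries, but by less than at the tRNA sites named above. The noncoding Platr3 had 4.14 and 5.03 in NELFE, 2.18 and 1.98 in NELFB:HA, and 1.87 and 1.88 in SPT5.

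Promoters of Csnk2a2 and Foxa2 are shown because, among sites over no tRNA gene, the first had the highest mean NELFE percentile of any at a protein-coding start, and the second is the single lineage regulator. Each is the 250 bases before the RefSeq start (GRCm38.p6), 5′ to 3′ on the gene's strand, with every CpG in capitals.
Csnk2a2, chr8:95488821-95489070, minus strand: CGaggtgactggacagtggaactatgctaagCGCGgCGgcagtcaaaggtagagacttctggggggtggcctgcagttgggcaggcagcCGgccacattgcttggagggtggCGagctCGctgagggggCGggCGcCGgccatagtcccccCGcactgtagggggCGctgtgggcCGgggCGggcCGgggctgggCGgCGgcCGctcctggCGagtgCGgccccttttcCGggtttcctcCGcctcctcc
Foxa2, chr2:148045949-148046198, minus strand: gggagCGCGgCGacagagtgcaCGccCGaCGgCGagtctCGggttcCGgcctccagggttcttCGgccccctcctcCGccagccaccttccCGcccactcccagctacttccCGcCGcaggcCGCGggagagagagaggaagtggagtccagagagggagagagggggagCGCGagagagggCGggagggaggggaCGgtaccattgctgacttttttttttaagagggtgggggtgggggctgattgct
These stretches held 22 and 20 CpG, an observed over expected ratio of 0.708 and 0.732. Over the 62 promoter windows (300 bases, of 54 genes) within 1000 bp of a NELFE-only site, the median ratio was 0.538 (SD 0.224). It was 0.832 (SD 0.219) over the 8839 windows near peaks shared by all 3 antibodies and 0.388 (SD 0.329) over all 31223 windows. A ratio of at least 0.6 was found in 25 of 62 windows (40.3%), 84.6% and 36.4%, in that order. The median was 0.729 near peaks shared with NELFB:HA alone and 0.633 near those shared with SPT5 alone. Within the NELFE-only windows it was 0.493 near the tRNA sites (17 windows) and 0.549 near the others (45 windows). Starts at NELFE-only sites were therefore between all starts and those of each shared class in median CpG ratio, with spreads that overlapped.

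Short motifs were counted in the same windows on both strands, and none of the patterns contains another. GGGCGG, a motif of SP and KLF factors, was in 38 of 62 windows (61.3%), against 69.3% near shared peaks and 11241 of all 31223 windows. CCGGAAG, a motif of ETS factors, was in 2 (3.23%), against 22.6% near shared peaks and 2813 of all windows. The NRF1 motif GCGCANGC was in 10 (16.1%), against 24.1% and 10.0%, and CCAAT in 28 (45.2%), against 38.5% and 37.3%, in that order. TATAAA was in 10 (16.1%), against 5.93% and 13.6%. A match is a description of these letters in this window. Windows of one gene overlap, and so few windows leave each count imprecise.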

How the data were processed

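The deposited peak lists of 6 control libraries were used. Per the submitters' processing notes, Bowtie2, deepTools and MACS2 were used and the build was mm10. Per the file headers, MACS 2.1.1.20160309 called broad peaks on each library against an input, at a p-value of 0.01 for strong and 0.1 for linking regions. Library numbers of NELFB:HA and NELFE in the headers differ from the titles, and the titles were followed. Filtered tags ranged from 27324697 to 62312558 per library, per the file headers, and a deeper library gives more precise scores.

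The deposited pileup signal is mean coverage after the authors' scaling, and it ranks peaks within 1 list. The deposited fold enrichment is the authors' ratio to local input. Both −log10 scores, of the p-value and of the q-value, were deposited as means over a peak. No test was made.

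From these, peaks were ranked and overlapped (Python 3.11.15, pandas 2.3.3), with ties at the threshold in file order. Where several peaks overlapped a site, the one of highest pileup was read. The script was checked on simulated lists. tRNA genes, starts and promoter sequences came from RefSeq tables (GRCm38.p6), without entries before 3 Mb (5 tRNA genes), where no list holds a peak. The q column holds values, although the headers say that q was not calculated. Planned CpG windows around peak centres were replaced by promoter windows, since no genome was used. Sites named are the 10 of highest mean NELFE percentile (examples given), those at the threshold, those without another peak, list genes, and further examples chosen after their values were seen. The sites and lists were chosen with earlier results of these data known. Alternatives changed the number of peaks, the ranking, the overlap and the libraries used.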

Additional observations from a re-analysis of the deposited data

How the results depend on the processing

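No paired analysis was possible because the results come from no test. With 20000 peaks per list, 569 sites met the rule, 16.2% at a start, 58.5% with a NELFB:HA peak and 41.5% with an SPT5 peak in both replicates, and 11.1% over a tRNA gene. The sites of 20000 peaks included 59 of the 95 tRNA sites and 11 of the 111 others. With 5000 peaks those shares were 37.1%, 84.3%, 66.4% and 62.9%, over 140 sites. Ranking by fold enrichment gave 84.3% with a NELFB:HA peak, 69.9% with an SPT5 peak and 35.1% over a tRNA gene. That ranking found 91 of the 95 tRNA sites and 31 of the 111 others, and ranking by −log10 p-value 90 and 35. Asking for 50% of a peak to be covered gave 31.6% over a tRNA gene. With peaks of −log10 q of 2 or more, 0.971% had a NELFB:HA peak and 0.485% an SPT5 peak in both, on a column whose meaning is uncertain. Leaving out 1 library at a time gave 241 to 443 sites, 28.4% to 33.4% at a start, 79.5% to 84.4% with a NELFB:HA peak, 61.0% to 68.7% with an SPT5 peak and 20.3% to 41.9% over a tRNA gene. The count passed 1.5 times the 206 sites without NELFE replicate 1 (443), NELFE replicate 2 (405) or NELFB:HA replicate 1 (310), since fewer lists were then asked. The share of sites that met the rule again was 11.6% with 20000 peaks and 26.1% when chosen on replicate 2, and over tRNA genes 77.8% with 20000 peaks. Other alternatives, ties and a minimum fold enrichment of 2 (both added after seeing the data) included, kept the count within 1.5 times and each share within its interval. The median CpG ratio was 0.678 with 5000 peaks and 0.598 with 20000, against 0.538 in the main setting. It therefore rose in both, by less than the SD of single windows (0.224), which does not measure the uncertainty of a median. Its 1000 bp window was not run. A missing peak does not show that a protein is absent: the lists differ in length, from 131619 peaks in the deepest library (SPT5 replicate 2) to 449451 in the shallowest of the 6 (SPT5 replicate 1).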

Other observations

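Chromosome X was outside the selection. On it, 250 NELFE replicate 1 peaks reached the pileup threshold, and 10 met the same rule, 1 of them over a tRNA gene. Of 17 tRNA genes annotated on that chromosome, 1 lay in a NELFE peak above the threshold.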
